A study of Ericerus pela with 2 samples.

Results

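Wnt, planar polarity, cadherin and Hippo genes were followed across 1 step of male development in the Chinese white wax scale (Ericerus pela), a sap-feeding insect. The members were the unigenes (assembled transcript fragments) whose best protein database match contained 1 of 20 keywords such as frizzled, axin, cadherin, van Gogh or vestigial. The keywords hit 171 unigenes. Of these, 22 were dropped because axin occurred only inside another word (syntaxin, metaxin, ataxin), and none was dropped as a low-density lipoprotein receptor match. That left 149 members of 120710 unigenes in all. They matched 86 database proteins, so several members may be fragments of 1 gene, and the numbers of unigenes below overstate the numbers of genes.

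The study compared 1 library of wild type male prepupae with 1 library of wild type male pupae, both given an age of 90 with no unit. Per the labels whole bodies were used, whereas the design note speaks of retina, and the number of animals per library is not given in the sources used here. In this species only males pass through these stages to become winged adults. In units of 1000000 uniquely assigned reads, the prepupal library held 2.18 and the pupal library 1.84. With 1 library per stage there was no replicate check and no test: values are given with exact 95% intervals that cover counting error only, and PCR copies are not independent molecules.

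Wnt proteins are secreted signals that bind Frizzled and the co-receptor Arrow. Dishevelled then blocks a complex of Axin, adenomatous polyposis coli (APC) and kinases that would otherwise mark Armadillo, the insect beta-catenin, for breakdown. In Drosophila Frizzled also works with Van Gogh, Prickle and the cadherin Starry night (Flamingo) to orient hairs and bristles across an epithelium, and the giant cadherins Fat and Dachsous feed into both polarity and the Hippo pathway, which limits organ growth through the kinase Warts. Vestigial and its DNA-binding partner Scalloped specify the wing in Drosophila.

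Calls rest on a rule of size: RPKM + 1 had to be at least 2-fold above (higher) or below (lower) its prepupal value in the pupal library. RPKM is reads per kilobase of unigene and per 1000000 reads of the library. The rule was applied to the 142 members with a mean RPKM of at least 1, and the other 7 lay below that. Of the 142, 9 were called higher, 56 lower and 77 neither. Among all 113976 unigenes past the same filter, 23.0% were called higher and 39.4% lower; among the 26856 of these with a database match the shares were 14.7% and 41.4%. The members' 39.4% called lower was thus at the background, and their 6.34% called higher was below it. The median log2 ratio of the members was −0.62, beside −0.49 for all filtered unigenes and −0.68 for those with a match. Of the 87 members that had 20 reads or more, 3 were called higher, 36 lower, beside 17.9% and 37.5% of all unigenes with that many reads and 13.6% and 41.4% of those with a match. TMM scaling, which corrects for differences in library composition, gave 16 higher and 38 lower members (19.5% and 32.1% of unigenes with a match). Centring on the median of all unigenes gave 19 higher and 33 lower (30.0% and 31.3% of all unigenes, 21.5% and 29.3% of those with a match). Summed over members there were 4109 prepupal and 2243 pupal reads, 1.55-fold fewer in pupae per 1000000 reads (1.47 to 1.63). Values differed between roles: summed reads of the Wnt receptors and of the Fat and Dachsous cadherins were lower in pupae than in prepupae, whereas those of Van Gogh and Vestigial were higher.

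**Figure D1:**
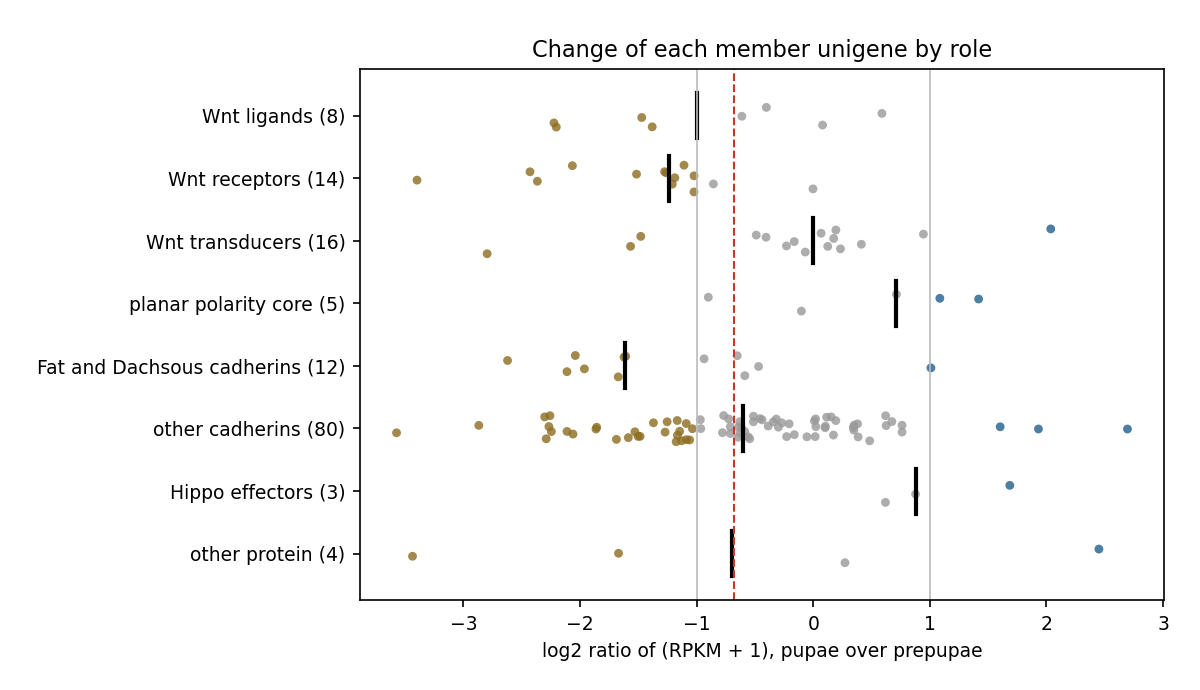
Log2 ratio of RPKM + 1 in pupae over prepupae (x axis) for each of the 142 filtered members, by role (y axis, number of unigenes in brackets); brown dots were called lower, blue higher and grey neither, black bars are medians, grey lines mark 2-fold and the red dashed line is the median of unigenes with a database match (−0.68). Wnt receptors and the Fat and Dachsous cadherins lie mostly left of the dashed line, with medians of −1.24 and −1.62, and the planar polarity core and Hippo effectors lie mostly right of it.

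Secreted Wnt ligands were scarce in both stages. The 8 ligand unigenes ranged from 1.84 to 15.5 RPKM in prepupae and from 0 to 11.5 RPKM in pupae, and together held 76 and 37 reads, 1.73-fold lower (1.16 to 2.64). With TMM scaling the pupal sum was 0.759 of the prepupal one (0.498 to 1.14), an interval that includes no change. Of the 8, 4 were called lower, a share of 50% near the background of 41.4% for unigenes with a match, and none higher; the median log2 ratio was −0.997.

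Wingless, the founding Wnt of insects, was matched by 3 unigenes with 16, 6 and 2 reads in prepupae and 10, 1 and 3 in pupae. Wnt-4 had 21 and 11 reads (0.621-fold in pupae, 0.270 to 1.35). The Wnt16-like unigene had 10 and 9 reads (1.07-fold, 0.384 to 2.92), an interval that includes no change. The Wnt11 match had 9 prepupal reads and 1 pupal read (7.59-fold lower, 1.05 to 333), and the Wnt family member 5B match 10 and 2 (4.22-fold lower, 0.899 to 39.6). Wnt-10b was listed with 2 reads in prepupae alone, below a floor of 3 counts. No single ligand carried enough reads to fix its own change closely.

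Frizzled receptors were lower in pupae. All 11 Frizzled unigenes had fewer reads per 1000000 in pupae, and 10 were called lower. Their reads summed to 304 and 106, 2.42-fold lower (1.93 to 3.05), and with TMM scaling the pupal sum was still 0.544 of the prepupal one (0.432 to 0.681). The 3 unigenes named Frizzled without a number held 124 and 37 reads (2.83-fold lower, 1.94 to 4.20), and the 6 named Frizzled 7 or 7b held 157 and 67 (1.98-fold lower, 1.48 to 2.67). The 2 Frizzled 2 unigenes, matching a receptor that binds Wingless in Drosophila, held 23 prepupal and 2 pupal reads (9.70-fold lower, 2.40 to 84.9).

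The 2 most abundant Frizzled unigenes were still readily detected in pupae. One named Frizzled 7 (Unigene140964_FOB) stood at 84.7 prepupal and 41.2 pupal RPKM (2.06-fold lower, 1.35 to 3.21). The other (Unigene143533_FOB) was at 76.9 and 31.2 RPKM (2.47-fold lower, 1.56 to 4.01). The exception was a Frizzled 7b unigene of 275 bases at 31.7 and 31.6 RPKM, level between the stages (0.998-fold, 0.480 to 2.05).

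Arrow was lower as well. Its 3 unigenes, all matched to 1 honeybee protein, had 20, 15 and 10 reads in prepupae and 5, 6 and 3 in pupae, 2.71-fold lower in sum (1.46 to 5.35). In all, 12 of 14 receptor unigenes were called lower and none higher, against 41.4% lower among unigenes with a database match. Several lay just past the threshold: with TMM scaling, and also after centring on the overall median, 5 of 14 were called lower, beside backgrounds of 32.1% and 29.3%. The summed receptor reads were 2.45-fold lower (1.99 to 3.04) on the deposited scale and 0.536-fold (0.432 to 0.662) with TMM scaling, while the number of calls depended on the scale.

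**Figure D2:**
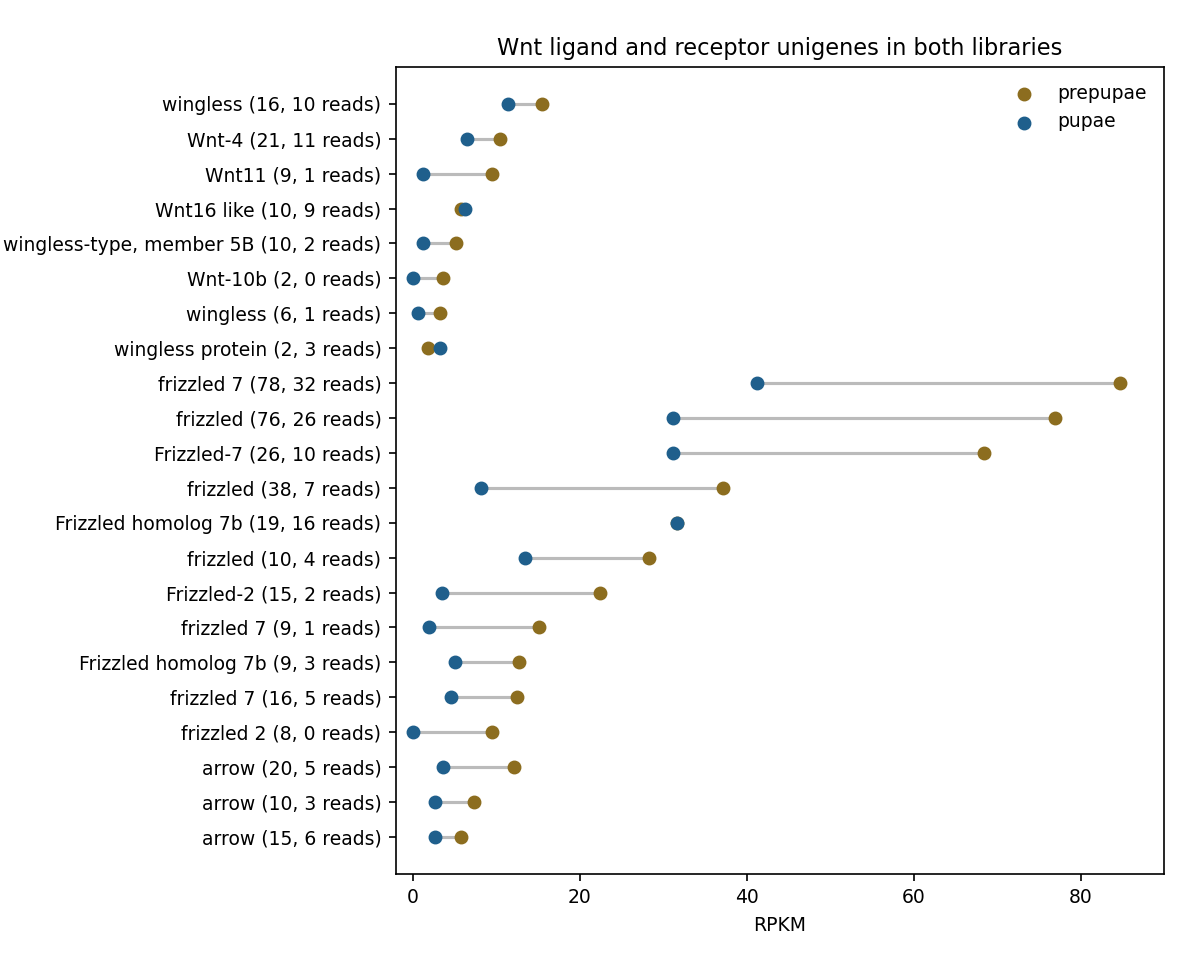
RPKM (x axis) of each Wnt ligand, Frizzled and Arrow unigene (y axis, with its reads in prepupae and pupae) in the prepupal library (brown) and the pupal library (blue), 1 library each. Frizzled unigenes reach 84.7 RPKM in prepupae and lie to the left in pupae except for 1 Frizzled 7b unigene at 31.7 and 31.6, and no ligand exceeds 15.5 RPKM.

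Inside the cell, the parts of the breakdown complex moved apart. Axin, its scaffold, was far lower in pupae. The unigene named Axin-2 had 81 prepupal and 9 pupal reads (70.4 and 9.28 RPKM, 7.59-fold lower, 3.81 to 17.2), and a second axin unigene had 29 and 8 (3.06-fold lower, 1.36 to 7.74). APC, which shares that complex, was not lower: its 5 unigenes held 196 and 218 reads (1.32-fold higher, 1.08 to 1.61). The most abundant APC unigene had 133 and 150 reads (57.3 and 76.6 RPKM), and the only one called higher rested on 0 and 1 read. The counting intervals of Axin and APC did not overlap, but APC was picked with its values already seen, so this is a description and no test.

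Armadillo was among the more abundant members, with 1 unigene at 113 and 95.9 RPKM. Its 7 unigenes held 288 and 195 reads, 0.803-fold in pupae (0.666 to 0.966) on the deposited scale and 1.06-fold (0.876 to 1.27) with TMM scaling, so the direction depended on the scale. Only a short fragment of 164 bases was called lower, with 37 and 11 reads (2.84-fold lower, 1.42 to 6.17). Another 2 that match 1 ant protein had 71 and 51 and 52 and 46 reads, called neither. Dishevelled was low in both stages, with 20 and 15 reads over 2 unigenes (0.889-fold, 0.423 to 1.83, and 1.17-fold with TMM scaling), too few to show a 2-fold change. Of the 16 intracellular members 1 was called higher (6.25%) and 3 lower (18.8%), beside 14.7% and 41.4% of unigenes with a match, with a median log2 ratio of −0.00, above the −1.24 of the receptors.

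Among the core planar polarity proteins, Van Gogh, a membrane protein that acts opposite Frizzled at cell borders, was higher in pupae. Its 4 unigenes held 129 and 174 reads (1.60-fold higher, 1.27 to 2.02; 2.10-fold with TMM scaling, 1.67 to 2.66). The largest had 78 and 109 reads (38.0 and 63.0 RPKM, 1.66-fold, 1.23 to 2.24), short of the 2-fold rule. A second had 28 and 52 (14.2 and 31.3 RPKM, 2.20-fold, 1.36 to 3.62) and was called higher. The remaining 2 had 14 and 6 and 9 and 7 reads, with intervals that include no change. Starry night was barely detected, at 1 and 3 reads, and a match to another cadherin receptor of its family had 1 read in prepupae alone.

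Prickle, the cytoplasmic partner of Van Gogh, lies outside the keyword rule and was followed as a pathway partner. Its single unigene of 316 bases had 4 prepupal and 63 pupal reads, 5.80 and 108 RPKM, 18.7-fold higher (6.94 to 70.6). It was the largest increase among the named members and partners with at least 20 reads. Prickle was also the only 1 of the 11 polarity partners called higher. Of these 11, 4 were called lower (2 with TMM scaling), 10 had fewer reads per 1000000 in pupae, and the median log2 ratio was −0.95. The shares of 9.09% higher and 36.4% lower compare with 14.7% and 41.4% of unigenes with a match.

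Fat and Dachsous are cadherins that bind each other between neighbouring cells. Their role group, which also holds fat-like and protocadherin matches, was lower in pupae. Of the 16, 12 passed the filter, and 7 of these (58.3%, beside 41.4% of unigenes with a match) were called lower and 1 higher, and the higher one, a protocadherin-16 match, had 2 and 4 reads. The 8 Fat unigenes held 252 and 68 reads (3.13-fold lower, 2.38 to 4.15; 0.421 of the prepupal level with TMM scaling, 0.317 to 0.552), and all 8 had fewer reads per 1000000 in pupae. The largest, a fat-like match of 831 bases, had 76 and 20 reads (41.9 and 13.1 RPKM, 3.21-fold lower, 1.94 to 5.54). Protocadherin fat 2 matches had 59 and 13 reads in sum (3.83-fold lower, 2.08 to 7.61), and fat-like matches 180 and 49 (3.10-fold lower, 2.25 to 4.34). The Fat sum rested on these matches. The 2 unigenes named protein fat or cadherin-related tumor suppressor held only 13 and 6 reads. Their sum was 0.547-fold (0.171 to 1.54), an interval that includes no change, and neither was called lower. The 5 unigenes named Dachsous held only 23 and 2 reads (9.70-fold lower, 2.40 to 84.9), and 3 of them were listed in prepupae alone. The 3 protocadherin-16 matches, grouped here with Dachsous, held 5 and 5 reads (1.19-fold, 0.273 to 5.15), an interval that includes no change. All 8 together held 28 and 7 reads, 3.37-fold lower (1.44 to 9.15).

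**Figure D3:**
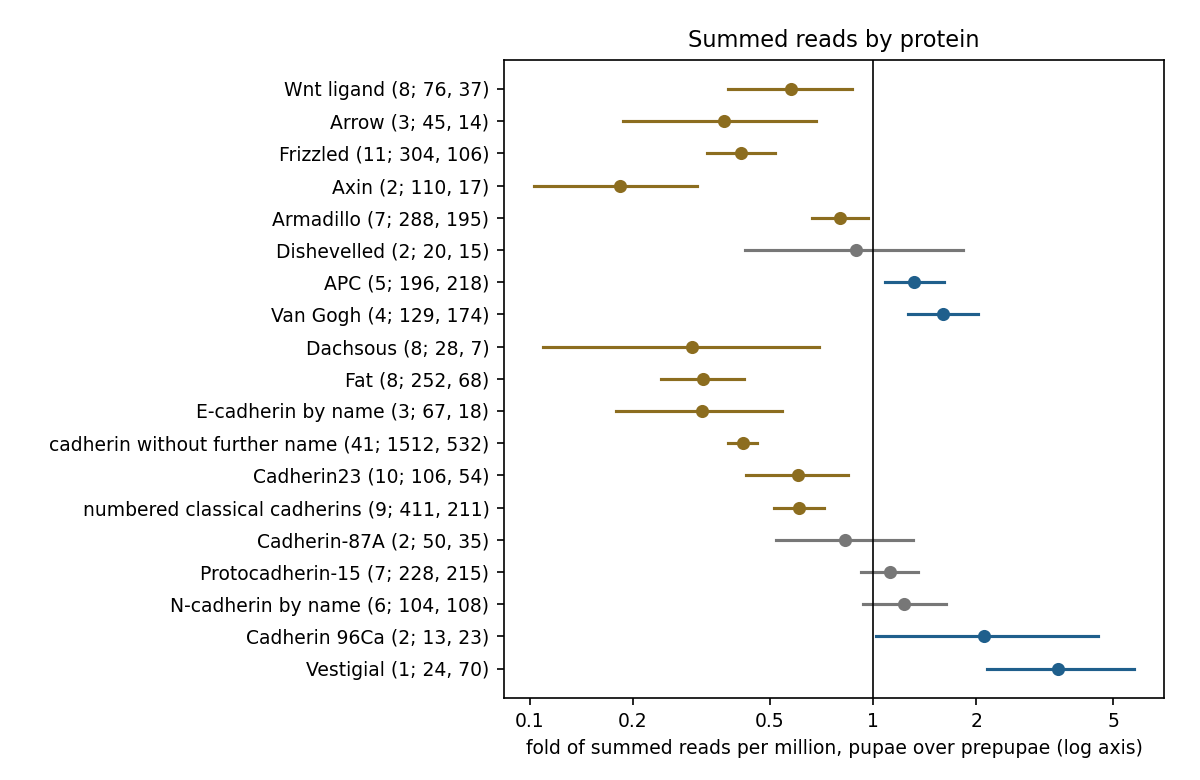
Fold of summed reads per 1000000 in pupae over prepupae (log axis) for member proteins with at least 20 reads, with exact 95% counting intervals as bars; brackets give the number of unigenes and the reads in prepupae and pupae, and colours mark intervals wholly below 1 (brown), wholly above 1 (blue) or including 1 (grey). Axin (110 and 17 reads), Frizzled (304 and 106), Fat (252 and 68) and E-cadherin by name (67 and 18) lie below 1. The intervals of APC, Van Gogh, Vestigial and Cadherin 96Ca (13 and 23) lie wholly above it.

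Classical cadherins hold cells together through Armadillo and alpha-catenin, E-cadherin in epithelia and N-cadherin mainly in neurons and muscle. The 3 unigenes named DE-cadherin or shotgun had 36, 19 and 12 reads in prepupae and 6, 3 and 9 in pupae, 3.14-fold lower in sum (1.84 to 5.62). The first 2 were called lower and the last neither. The 6 unigenes named N-cadherin held 104 and 108 reads (1.23-fold, 0.932 to 1.63), with none called in either direction; with TMM scaling 2 were called higher and the sum was 1.62-fold higher (1.23 to 2.14). The counting intervals of the 2 sums did not overlap. Both proteins were picked with their values already seen, so this describes the sums and tests nothing. The DE-cadherin unigene called neither was at 0.889-fold (0.331 to 2.30), an interval that includes no change.

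A further 9 unigenes matched classical cadherins whose names carry a number instead of E or N. Names alone do not give their type, so the E-cadherin and N-cadherin sums above may leave out unigenes of either type. The 7 matching Gb1-cadherin of a cricket or Bm1-cadherin of the silkworm held 383 and 179 reads (1.81-fold lower, 1.51 to 2.17). Of these, 4 were called lower and 3 neither, and with TMM scaling the sum was 0.729-fold (0.607 to 0.873). The 2 matching Gb2-cadherin or Af2-cadherin held 28 and 32 (1.35-fold, 0.790 to 2.34; 1.78-fold with TMM scaling, 1.04 to 3.07). On the log2 scale of RPKM + 1 the lowest ratio among filtered members (−3.57) was that of a Gb1-cadherin match of 195 bases, at 110 RPKM in prepupae and 8.36 in pupae (47 and 3 reads, 13.2-fold lower, 4.25 to 66.4).

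The largest group of cadherins had no name beyond cadherin or cadherin-like. These 41 unigenes held 1512 and 532 reads (2.40-fold lower, 2.17 to 2.65), and 18 of the 40 past the filter were called lower and 1, with 0 and 1 read, higher. The 45% called lower was near the 41.4% of unigenes with a match, and with TMM scaling 11 of 40 were lower, beside 32.1%. They were not uniform between proteins. The 3 unigenes matching 1 Tribolium cadherin, among them the longest member at 4489 bases, had 258, 238 and 59 reads in prepupae and 70, 40 and 22 in pupae, and all 3 were called lower (3.55-fold in sum, 2.93 to 4.32). The 3 matching 1 Culex cadherin held 163 and 32 reads (4.30-fold lower, 2.93 to 6.49). The 7 that matched 1 aphid cadherin held 237 and 75 (2.67-fold lower, 2.05 to 3.50), with 5 called lower. The 9 that matched another aphid cadherin held 243 and 139 (1.47-fold lower, 1.19 to 1.83), with none of the 9 called, and with TMM scaling the sum was 0.892-fold (0.719 to 1.10). A long Aedes match had 82 and 70 reads (1.01-fold, 0.725 to 1.41).

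Fragments of a single database protein did not always move together. Of the 5 unigenes similar to Gb1-cadherin in the aphid, 1 had 38 and 4 reads (0.125-fold, 0.0323 to 0.347) and another 44 and 40 (1.08-fold, 0.684 to 1.69). These counting intervals did not overlap, but the pair was picked with its values already seen. The 2 matches to Cadherin 96Ca, in Drosophila a receptor tyrosine kinase, had 3 and 18 reads (7.11-fold higher, 2.08 to 37.7) and 10 and 5. The first was 1 of the 3 members with at least 20 reads that were called higher.

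**Figure D4:**
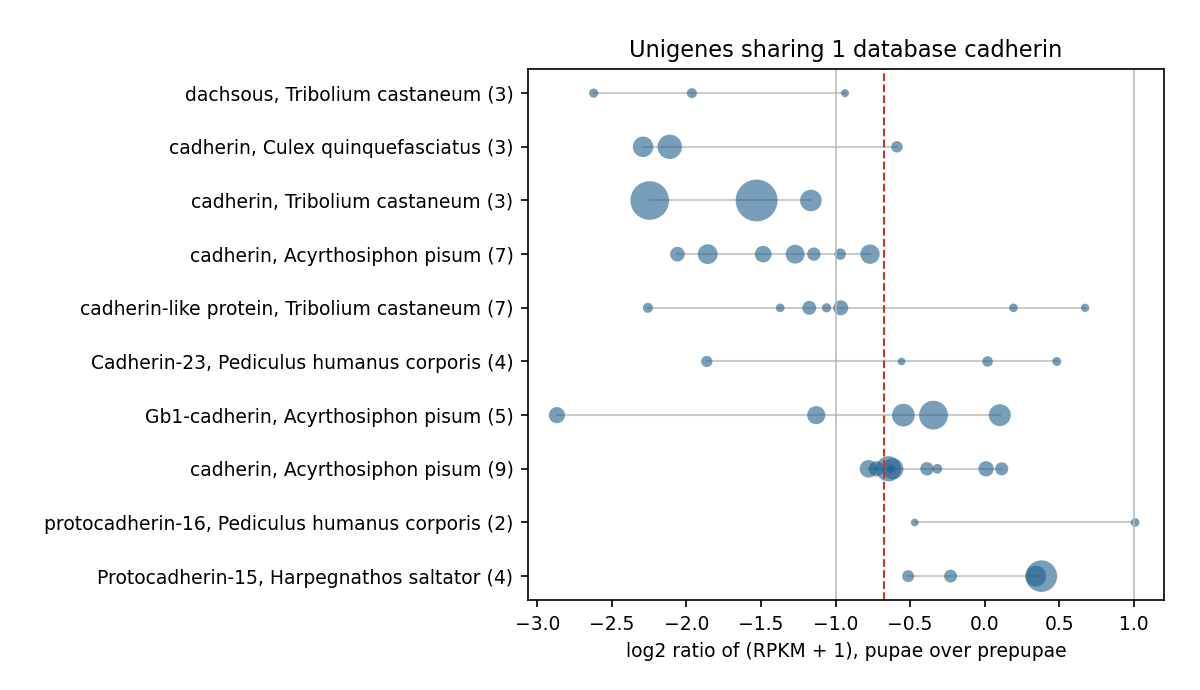
Log2 ratio of RPKM + 1 in pupae over prepupae (x axis) of each filtered unigene for cadherin proteins matched by at least 3 unigenes (y axis, with the species of the match and the number of filtered unigenes); dot area grows with reads, grey lines mark 2-fold and the red dashed line is the median of unigenes with a database match. The 9 unigenes of 1 aphid cadherin lie close together between −0.78 and 0.11, whereas the 5 Gb1-cadherin matches span −2.87 to 0.10.

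Protocadherin-15, known in vertebrates from the tip links of hair cells, was matched by 7 unigenes with 228 and 215 reads (1.12-fold, 0.923 to 1.35, and 1.47-fold with TMM scaling, 1.21 to 1.78), none of them called on either scale; the largest was at 48.9 and 63.9 RPKM. Cadherin-23, its tip-link partner in vertebrates, had 10 unigenes with 106 and 54 reads (1.66-fold lower, 1.18 to 2.34; 0.795 of the prepupal level with TMM scaling, 0.562 to 1.11). Cadherin-87A had 50 and 35 reads (0.830-fold, 0.523 to 1.30, and 1.09-fold with TMM scaling).

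Hippo pathway members were few. The keywords yorkie and salvador matched 0 unigenes, and hippo matched only hippocalcin, a calcium sensor of another pathway. The role labelled Hippo effectors thus holds 3 unigenes: the kinase Warts, Scalloped, and Vestigial, which is grouped here as the partner of Scalloped. Vestigial, the wing selector, had 24 prepupal and 70 pupal reads on a unigene of 1191 bases, at 9.23 and 31.9 RPKM, 3.46-fold higher (2.15 to 5.75). Scalloped had 6 and 8 reads (1.58-fold, 0.481 to 5.53) and Warts 3 and 5 (1.98-fold, 0.384 to 12.7), and neither passed the rule. The sum of the 3 rested on Vestigial: it was 2.98-fold higher with it (1.97 to 4.61) and 1.71-fold without it (0.677 to 4.54).

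The 12 Hippo partners held 661 and 547 reads (0.981-fold, 0.874 to 1.10, and 1.29-fold with TMM scaling). None was called higher (0%) and 1 lower (8.33%), beside 14.7% and 41.4% of unigenes with a match. With TMM scaling 0 and 0 were called, beside 19.5% and 32.1%. The 1 called lower was a WW domain-containing oxidoreductase with 105 and 41 reads (2.16-fold lower, 1.49 to 3.18), whose name caught the keyword. Merlin, which activates the Hippo kinases at the membrane, had 71 and 55 reads (0.918-fold, 0.634 to 1.32, and 1.21-fold with TMM scaling). Discs large, a polarity scaffold, had 344 and 329 reads over 4 unigenes (1.13-fold, 0.972 to 1.32; 1.49-fold with TMM scaling, 1.28 to 1.74), and Scribble, another scaffold, 46 and 52 over 2 (1.34-fold, 0.884 to 2.04; 1.76-fold with TMM scaling, 1.16 to 2.68).

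Of 27 filtered Wnt partners 3 were called higher and 10 lower, with a median of −0.20 (4 and 6 with TMM scaling). Their shares of 11.1% and 37.0% lay near the 14.7% and 41.4% of unigenes with a match. Porcupine, which attaches the lipid that Wnt proteins need for secretion, had 15 prepupal reads and 1 pupal read (12.7-fold lower, 1.95 to 533). Groucho, a co-repressor of Wnt target genes, had 89 and 10 (55.6 and 7.40 RPKM, 7.51-fold lower, 3.90 to 16.2). Casein kinase I, which phosphorylates several pathway members, had 239 and 123 over 5 unigenes (1.64-fold lower, 1.31 to 2.05), 4 of them called lower; with TMM scaling 3 were, and the sum was 0.803-fold, with an interval that includes no change. Shaggy, a kinase of the breakdown complex, was higher in pupae with 40 and 71 reads (62.1 and 131 RPKM, 2.10-fold higher, 1.41 to 3.18). Pygopus, a nuclear cofactor of Armadillo, had 118 and 104 reads (1.04-fold, 0.795 to 1.37, and 1.37-fold with TMM scaling, 1.05 to 1.80).

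Of 25 junction partners, 5 were called higher (20%, beside 14.7% of unigenes with a match and 23.0% of all) and 1 lower (4%, beside 41.4% and 39.4%), with a median of 0.27. With TMM scaling 9 were higher and 1 lower, beside 19.5% and 32.1% of unigenes with a match. Vinculin, which links cadherin and integrin complexes to actin, had 251 and 399 reads over 6 unigenes (1.88-fold higher, 1.61 to 2.22). Bazooka, the Par-3 protein of the apical border, had 182 and 255 over 4 (1.66-fold, 1.37 to 2.02), and Canoe, an actin linker of adherens junctions, 65 and 106 over 2 (1.93-fold, 1.41 to 2.67). Echinoid, an adhesion protein that also touches Hippo signalling in Drosophila, had 156 and 106 over 7 (0.805-fold, 0.623 to 1.04, and 1.06-fold with TMM scaling).

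**Figure D5:**
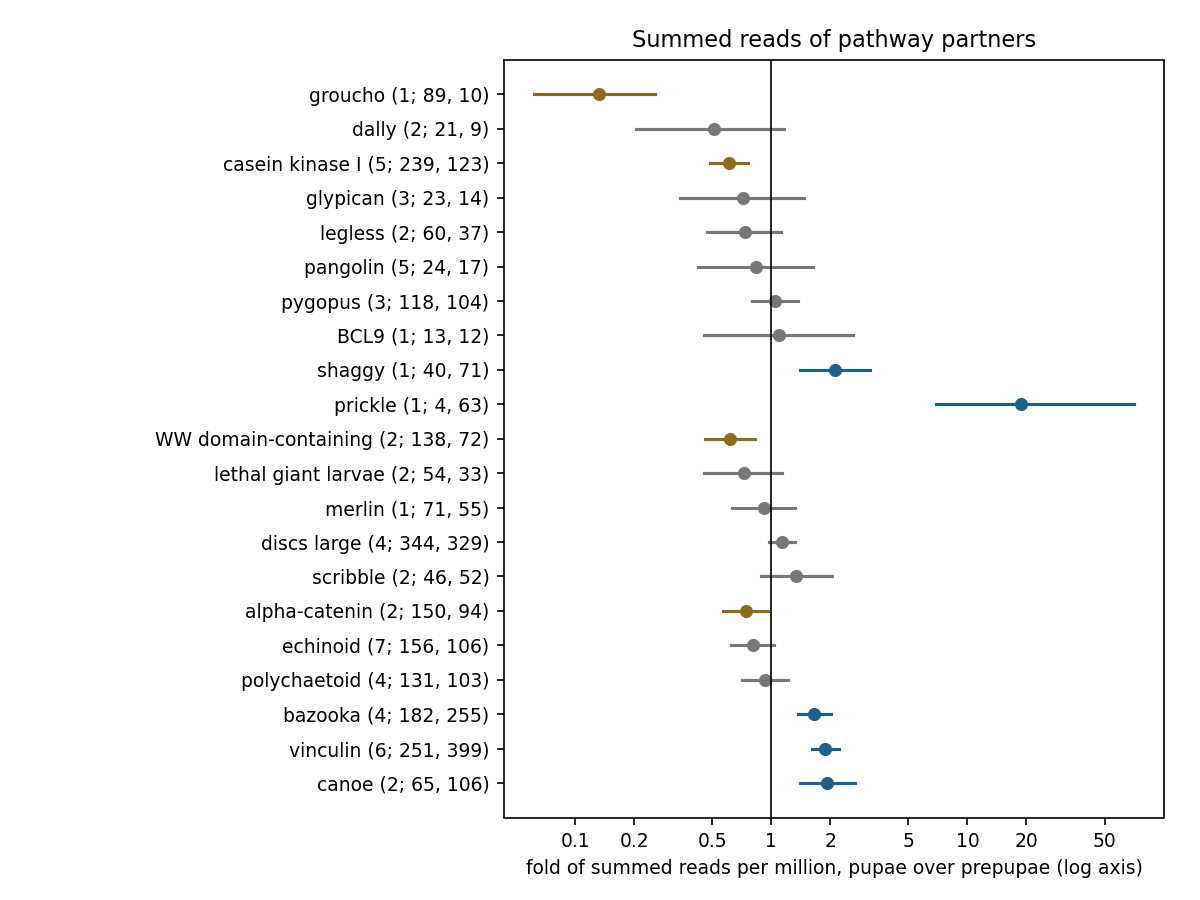
Fold of summed reads per 1000000 in pupae over prepupae (log axis) for the pathway partners reported here with at least 20 reads, in the order Wnt, polarity, Hippo and junction partners, with exact 95% counting intervals as bars; brackets give the number of unigenes and the reads in prepupae and pupae, and colours are as in the plot of member proteins. Groucho (89 and 10 reads) is the lowest and Prickle (4 and 63 reads) the highest.

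In whole-body libraries fewer cells of a type and less RNA per cell cannot be told apart, and marker genes of several cell types differed between the same 2 libraries. Beside the 14.7% higher and 41.4% lower among unigenes with a match, the shares were 50% and 7.14% for neuron, 29.9% and 9.20% for muscle, 47.1% and 11.8% for photoreceptor and 0% and 75% for dividing-cell markers. Of 14 neuron markers 7 were called higher and 1 lower, with 208 and 541 reads per 1000000 (RPM) in sum. These calls came from synaptotagmin, with 6 of 8 higher and 1 lower, and from the 1 complexin unigene. No unigene of synapsin, syntaxin 1, elav or synaptobrevin was called. Muscle markers, a list that also caught non-muscle myosin, had 26 of 87 higher and 8 lower (3923 and 7464 RPM). Most of this was titin, with 18 of 55 higher and 0 lower (3102 and 6353 RPM). Paramyosin went the other way, with 1 of 11 higher and 5 lower (433 and 269 RPM). Of 4 tropomyosin unigenes 2 were higher and 2 lower, of 14 for myosin heavy chain 3 and 1, and of 3 for troponin 2 and 0. Photoreceptor markers (opsin or arrestin) had 8 of 17 higher and 2 lower (130 and 769 RPM). All 4 opsin unigenes were higher (2.75 and 169 RPM). Of 13 arrestin unigenes 4 were higher and 2 lower (127 and 599 RPM), and that keyword was not limited to visual arrestins. Markers of dividing cells had 0 of 12 higher and 9 lower (307 and 93.4 RPM). Of the marker unigenes, 4 muscle ones and 1 opsin were at 0 reads in prepupae and 2 muscle ones in pupae, and 0 unigenes were both member and marker. The part of these shifts in the values above was not tested.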

How the data were processed

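Total RNA from male whole bodies was sequenced with standard Illumina procedures, per the labels. The deposited tables give, per the file headers, the count of uniquely assigned reads, the length and the RPKM of each unigene with at least 1 read, so near-identical copies can lose shared reads; the assembler and aligner are not named in the labels or headers. The authors' RPKM equalled the value recomputed from deposited counts for 100% of values (relative tolerance 1e-06).

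Tables were joined on the unigene identifier, an absent unigene being given 0 reads. Ratios used RPKM with a pseudocount of 1, a mean RPKM of at least 1 and a 2-fold rule of size. Folds are ratios of reads per 1000000 with exact (Clopper-Pearson) conditional binomial 95% intervals from scipy 1.17.1; TMM factors came from edgeR 4.0.16. Alternatives were other pseudocounts and filters, TMM scaling, centring on the median, a length minimum, sums by database protein and leaving out the largest unigene. No test was possible with 1 library per stage. The interval code was tested on simulated data.

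The members, roles and lists were chosen with earlier results of these data known. The partner and marker lists are keywords matched as whole words. In each role, unigenes could be named for most reads (up to 4) or for the largest change (up to 3 each way) among those with at least 20 reads, with the same rule of largest change for each partner list; every Wnt ligand, receptor, core polarity and Hippo member could be named. Other partners, E-cadherin, N-cadherin, APC, fragment groups of 1 database protein, sums over protein names and the sub-grouping of cadherins were picked with their values already seen. No reference sequence was used. Part of the polarity partner list is not reported here, though its unigenes remain in the counts over all partners.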

Additional observations from a re-analysis of the deposited data

How the results depend on the processing

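Of the recomputed group values, 94 held, 37 moved and 1 reversed. The 9 higher and 56 lower of 142 members became 2 and 36 of 142 at a pseudocount of 5. Stricter filters left fewer members: 3 and 36 of 87 at 20 or more reads, and 3 and 21 of 52 at 500 bases or more. The share called lower was 41.4% at 20 or more reads, beside 39.4% in the main setting. At a mean RPKM of at least 5, 3 of 110 were higher. TMM scaling gave 16 higher, and centring 19 higher and 33 lower. The 9 higher and 16 lower of 75 partners became 1 and 3 (of 24) at 500 bases or more, 14 and 9 with TMM and 16 and 7 after centring. At a pseudocount of 5, 9 were lower, and at 20 or more reads 7 of 51 were. Medians with TMM and after centring were −0.27 and −0.13 for all members, −0.89 and −0.74 for Wnt receptors, 0.37 and 0.49 for Wnt transducers, −0.24 and −0.11 for cadherins other than Fat and Dachsous, and 0.26 and 0.38 for partners. A pseudocount of 5 moved the receptor median to −0.98 and that of Hippo effectors to 0.62. Summed reads with TMM were 0.851-fold for all members, 0.418 for Fat and Dachsous, 0.536 for receptors, 0.751 for other cadherins and 2.11 for the polarity core, and those of Wnt transducers turned from 0.859-fold to 1.13-fold, as TMM shifts every ratio upwards. Without its largest unigene the transducer sum was 0.727-fold and the Hippo sum 1.71-fold. Among values of single unigenes and partner lists, 193 held and 25 moved. No paired analysis was possible because each stage has 1 library, and no library could be left out for the same reason. Depth limits the Wnt ligands, Dishevelled, Dachsous, Starry night, Scalloped and Warts, each with at most 32 reads per unigene.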

Other observations

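Another 4 keyword hits kept among the members belong to other proteins. Hippocalcin had 100 and 102 reads (1.21-fold, 0.909 to 1.61). Arrowhead, a LIM-homeobox protein, was listed with 2 reads in prepupae alone on 1 unigene and 3 reads in pupae alone on another. A unigene of 893 bases whose best match was a mouse alpha-catenin entered through the words cadherin associated and had 32 prepupal reads and 1 pupal read (27.0-fold lower, 4.51 to 1099). The 2 unigenes named for the insect alpha-catenin gene, which couples cadherin and Armadillo to actin, held 150 and 94 reads (0.743-fold, 0.568 to 0.968, and 0.977-fold with TMM scaling, 0.747 to 1.27).

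The term establishment of planar polarity was carried by 20 of the 149 members and by 68 of all unigenes, and 13 of the 20 were cadherins other than Fat and Dachsous, with 3 in the polarity core. The Wnt receptor signaling pathway term was carried by 14 members, of which 1 was among the 14 Wnt receptors, 3 were among the 16 intracellular members and 8 were cadherins other than Fat and Dachsous.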
